A study of Homo sapiens with 30 samples.

Results

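Delta47 is a human multiple myeloma cell line, a culture of malignant plasma cells. RNA from unedited Delta47 cells (WT, 3 libraries) was compared with RNA from a knockout clone of the transcription factor gene FOXM1, called KO2 (3 libraries). These are 6 of the 30 libraries of the series. Both groups came from the same line and were grown in the same medium, and neither carried an expression vector. FOXM1 was targeted with Cas9 protein and a guide RNA delivered by electroporation, and clones were grown by limiting dilution. KO2 is a single clone, so what FOXM1 loss changed and what this clone differs in for other reasons cannot be told apart from WT and KO2 alone. A second knockout clone of the same line (KO1, 3 libraries) was therefore set beside it, as was KO2 after lentiviral transfer of a FOXM1c vector and sorting for GFP (KO2R, 3 libraries). Nothing in the labels says that the 3 libraries of a group are separate cultures, and p-values here reflect only how far these libraries scatter, which may be technical. A gene was tested when its value was at least 1 in at least 3 of the 6 WT and KO2 libraries, which 10827 of 17286 genes met. At the limit, C6orf99 and CDYL2 passed with 1 as the value that decided it, and FOS and GDNF missed with 0.99.

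FOXM1 is a forkhead transcription factor whose level rises toward mitosis. It is recruited, with B-MYB and the MuvB complex, to promoters of genes needed for entry into and passage through mitosis, such as PLK1, CCNB1 and CDC25B. It is a known marker of proliferative disease in myeloma, and plasma cell tumours also depend on IRF4, XBP1 and PRDM1, the factors that set plasma cell identity.

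The study gives 3 guide RNAs against exon 2 of FOXM1 and does not say which of them gave this clone. They are shown because they place the edit. Matched to the GENCODE 29 transcripts (build GRCh38), each lies in exon 2 of 4 of the 5 coding FOXM1 transcripts. Guides 1 and 2 lie on the + strand, antisense to the transcript, at chr12:2874444-2874463 and chr12:2874445-2874464, inside the coding sequence. Guide 3 lies on the transcript's strand (-) at chr12:2874461-2874480 and holds the start codon of those 4 transcripts. Each site is written 5′ to 3′ with the adjacent PAM, the bases Cas9 needs beside its target, in capitals.
guide 1: ttgagaatcagtggccgacgGGG
guide 2: tgagaatcagtggccgacggGGG
guide 3: taatgaaaactagcccccgtCGG

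The values are the authors' expression values, whose unit is not named and whose depth is unknown, with column totals of 534185 to 552748 in WT and 536159 to 542125 in KO2. Libraries of one group correlated with Pearson's r of 0.9971 to 0.9979 across genes, and KO2 libraries correlated with WT libraries at 0.9834 to 0.9843. Fold changes are on the scale of log2(value + 1), which understates the change of low genes. The threshold for a call was an adjusted p of 0.05 (limma, Benjamini-Hochberg over all genes tested). In KO2 44.1% of all genes tested were called, 3110 higher (28.7%) and 1661 lower (15.3%). Most changes were small, with a median absolute log2 fold change of 0.13. Genes called and at least 1.5-fold higher numbered 247 (2.28%) and those at least 1.5-fold lower 356 (3.29%). The split of calls depends on scaling, since 65.2% of called genes were higher as deposited and 47.5% when each library was centred on its median. Counts for a gene list below are to be read against these shares, and against the median log2 fold change of all genes, 0.05.

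FOXM1 transcript fell in KO2. Its value was 87.1, 88.81 and 90.85 in the WT libraries and 47.11, 46.1 and 45.35 in the KO2 libraries. The groups lay far apart, at 88.9 ± 1.88 and 46.2 ± 0.883 (SD, n = 3), a log2 fold change of -0.93 (SE 0.04, adjusted p = 7.58e-12). An edit within an exon need not remove the transcript, and the transcript value does not measure the protein. KO1 stood at 47.9 ± 1.85 (KO2 minus KO1 -0.05, adjusted p = 0.307) and KO2R, whose vector also adds FOXM1 transcript, at 99.4 ± 4.37.

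The late cell cycle list, the genes of G2 and mitosis to which most known FOXM1 targets belong, fell in part. Of its 70 members, all tested, 27 were called lower and 9 higher. Its median was -0.06, and 11 members fell by at least 1.5-fold while none rose by that much. With quantile scaling 33 members were called lower and 7 higher, and with median scaling 35 and 7. RNA was taken from whole cultures, so fewer cells in G2 and M and less RNA per such cell cannot be told apart. List members named here and below beyond the 4 of smallest adjusted p were chosen after their values were seen.

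PLK1, the kinase that drives mitotic entry and spindle assembly, had the lowest log2 fold change of the list. Its values were 167, 173 and 176 in WT and 87.8, 86.8 and 88.7 in KO2, with no overlap and a log2 fold change of -0.96 (SE 0.04, adjusted p = 7.54e-12). CDC25B, the phosphatase that activates CDK1, stood at 132, 139 and 135 in WT and 72.7, 70.6 and 72.8 in KO2, a log2 fold change of -0.90 (adjusted p = 3.79e-12). GPSM2, which orients the spindle, stood at 14.9, 14.1 and 15.2 in WT and 8.2, 7.57 and 7.28 in KO2 (log2 fold change -0.86, adjusted p = 1.02e-08). The log2 fold changes of these 3 genes were close to that of FOXM1, and each KO2 library lay below each WT library.

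The mitotic cyclin and its kinase fell less. CCNB1 (cyclin B1) went from 95.4 to 63.0 in the mean (log2 fold change -0.59) and CDK1 from 24.5 to 16.0 (-0.59). Log2 fold changes were -0.68 for PTTG1 (securin, the separase inhibitor), -0.64 for the centrosome kinase gene NEK2, -0.62 for the cytokinesis kinesin gene KIF20A and -0.58 for the F-box gene CCNF. CKS1B (-0.69), a CDK subunit, and NUF2 (-0.95), a kinetochore protein, also fell, and both lie in the stretch of chromosome 1 described further on. Falls of under 1.5-fold included CCNA2 (cyclin A2) at -0.52, UBE2C at -0.40, MKI67 at -0.33, CENPF at -0.21 and CCNB2 at -0.14.

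Other well known mitotic genes did not fall. AURKA was at 40.8 in WT and 42.0 in KO2 in the mean (log2 fold change 0.04, adjusted p = 0.465). AURKB (0.05, adjusted p = 0.296) and TOP2A (0.07, adjusted p = 0.264) also missed the threshold. The survivin gene BIRC5 rose from 60.8, 60.73 and 61.43 in WT to 77.53, 76.65 and 80.42 in KO2 (0.35, adjusted p = 1.53e-07). CKAP2L (0.51), PIMREG (0.46), BUB1 (0.35) and CKS2 (0.35) rose too, so members of the list went both ways beyond their spread between libraries. Of these, CKAP2L lies in a stretch of chromosome 2 described further on.

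**Figure D1:**
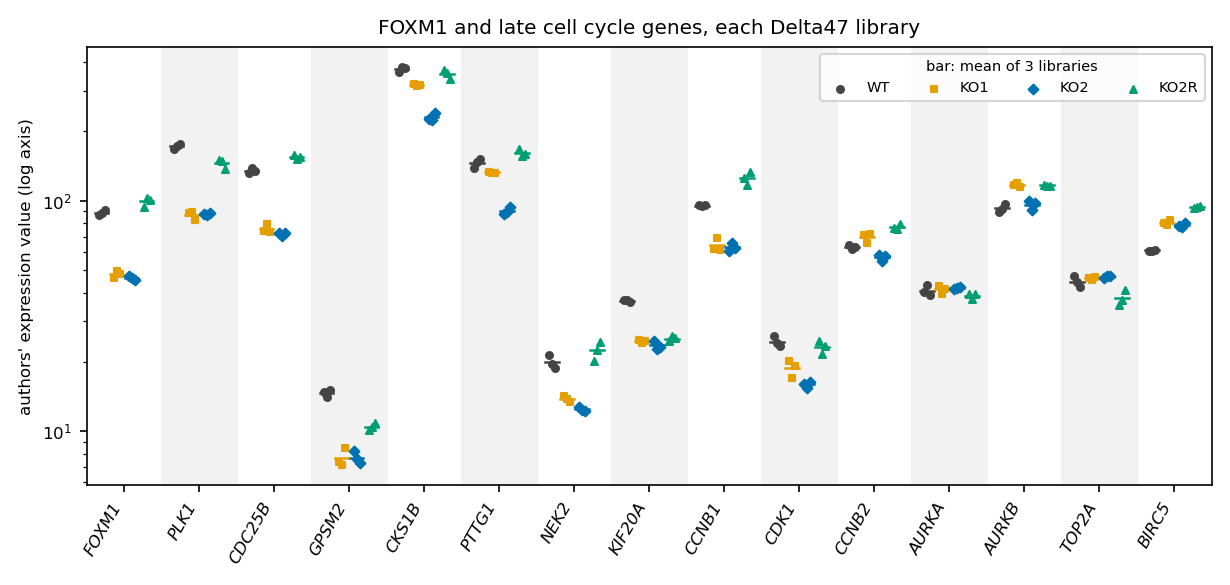
Authors' expression value (log axis) of FOXM1 and 14 late cell cycle genes in each Delta47 library of WT, KO1, KO2 and KO2R. Points are libraries and bars are means of 3. The KO2 points of PLK1, CDC25B and GPSM2 lie below all WT points, those of AURKA and TOP2A lie among or beside them, and those of BIRC5 lie above them.

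Set beside the other groups, KO1 had a log2 fold change from WT of -0.98 in PLK1, -0.83 in CDC25B, -0.86 in GPSM2 and -0.57 in CCNB1. The direct test between the clones did not call these 4 genes, with differences of 0.01, -0.07, 0.01 and -0.02. KO2 lay below KO1 in PTTG1 (-0.55, adjusted p = 1.75e-08), CKS1B (-0.47, 1.1e-07), CCNB2 (-0.28, 3.4e-05), AURKB (-0.28, 2.75e-05) and CDK1 (-0.22, 0.00825). It lay above KO1 in MKI67 (0.47, adjusted p = 8.34e-07) and CENPF (0.29, 0.000875). Against WT, KO1 was itself called higher in CCNB2 (0.14) and AURKB (0.33). KO1 was called lower than WT in PTTG1 (-0.13), CKS1B (-0.23) and CDK1 (-0.37). Over the list, 12 of 70 members were called above KO1 (25.4% of all genes tested) and 12 below (17.1%).

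With the FOXM1c vector in the same clone, KO2R stood above KO2 by 1.10 in CDC25B, 0.98 in CCNB1, 0.83 in PTTG1, 0.80 in NEK2, 0.73 in PLK1 and 0.40 in GPSM2 on the log2 scale. KIF20A differed by 0.09 (adjusted p = 0.0528). Of the 70 list members 25 were called higher in KO2R than in KO2 (25.3% of all genes tested) and 32 lower (37.3%). KO2R was lower than KO2 in MKI67 (-0.55) and CENPF (-0.40). The KO2 libraries enter both this comparison and the one with WT, and the matched empty-vector group was not analysed here.

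Promoter sequence was read for the list because FOXM1 reaches these genes through DNA elements near their start. A CHR (cell cycle genes homology region) was searched as TTTGAA or TTCGAA and a CCAAT box as CCAAT, on both strands, in the 250 bases before the RefSeq start site (build GRCh38.p14). Promoters were found for 60 of the 70 members and 8940 of the genes tested. A CHR stood in 56.7% of the list and 9.49% of promoters of the tested genes, and a CCAAT box in 73.3% and 36.0%. Both stood together in 48.3% and 4.14%, and among all 27305 promoters of the table in 5.24%. Within the list, 11 of 22 members called lower held a CHR (50.0%), as did 23 of 38 other members (60.5%). The 120 bases before the start are shown for PLK1 (chr16:23678769-23678888, + strand), GPSM2 (chr1:108876865-108876984, + strand) and CKS1B (chr1:154974561-154974680, + strand), which fell, and TOP2A (chr17:40417897-40418016, - strand), which was not called. PLK1, GPSM2 and CKS1B hold both motifs in these bases. In the same 120 bases CCNB1, KIF20A, NEK2 and PTTG1, which also fell, hold a CCAAT box and no CHR. CDC25B and CDK1, which fell, and AURKB, which was not called, hold neither. Capitals mark the motifs on either strand.
PLK1: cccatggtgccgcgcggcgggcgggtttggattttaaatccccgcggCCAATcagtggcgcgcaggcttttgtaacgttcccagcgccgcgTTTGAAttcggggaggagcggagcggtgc
GPSM2: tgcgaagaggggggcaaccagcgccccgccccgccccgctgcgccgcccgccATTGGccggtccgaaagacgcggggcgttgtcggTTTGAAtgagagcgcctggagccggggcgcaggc
CKS1B: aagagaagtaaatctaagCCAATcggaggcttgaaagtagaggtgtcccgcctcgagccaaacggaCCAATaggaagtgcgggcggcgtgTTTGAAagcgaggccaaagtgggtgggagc
TOP2A: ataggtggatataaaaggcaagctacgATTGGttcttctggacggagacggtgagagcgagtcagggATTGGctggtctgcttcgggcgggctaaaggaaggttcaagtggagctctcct

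Partners of FOXM1 and earlier cell cycle genes moved little. Of 12 tested B-MYB, MuvB and DREAM genes 4 rose and 2 fell, none by 1.5-fold, and with quantile or median scaling 2 rose and 3 fell. MYBL2 (B-MYB) rose by 0.30 and the E2F partner gene TFDP2 fell by 0.40. RBL2 (0.17) lost its call without WT replicate 3, and RBBP4 (0.12) lost it under both scalings and without most of the single libraries. Of 61 G1/S and DNA replication genes 18 fell and 6 rose, with a median of -0.05 and none past 1.5-fold. Among the falls were the helicase subunit gene MCM4 (-0.51), the histone chaperone subunit gene CHAF1A (-0.34) and UHRF1 (-0.33). The 6 rises became 2 with quantile or median scaling and 3 without KO2 replicate 2. The 18 falls became 23 with quantile scaling and 27 with median scaling.

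Replication-dependent histone genes had a lower median, -0.26, with 11 of 23 called lower and 1 higher. HIST1H2BK, a histone H2B gene, went from 370.3 to 235 (-0.66) in the mean and the linker histone gene HIST1H1C from 174 to 122 (-0.51). HIST2H2AA3 and HIST2H2AA4 fell from 33.8, 35.6 and 35.9 to 15.9, 17.3 and 17.8 (-1.01), but these near-identical genes carry the same values in every library and count as 1 measurement. The chromosome 1 stretch holds 6 of the 23 genes, and 7 of the other 17 fell. Against KO1, 13 of 23 were lower in KO2 (17.1% of all genes tested) and none was higher (25.4%). The median of the list in KO1 against WT was 0.22, opposite in sign to that of KO2. Since poly-A RNA was sequenced, histone mRNA without a tail is not measured well.

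A long run of neighbouring genes on chromosome 1 was mostly lower in KO2. In gene order, 289 neighbouring tested genes from POLR3C to SWT1 had a median log2 fold change of -0.57 and middle values (25th to 75th percentile) of -0.73 to -0.37. Of these genes 261 were called lower (90.3%) and 8 higher. On the same chromosome the 628 tested genes before the stretch had a median of 0.06 and the 203 after it 0.02. The stretch was found after the values were seen, as the only place where the running median of 25 genes passed 0.3 on the log2 scale for at least 25 genes in a row. It holds 261 of the 1661 genes that fell, and without it 3102 genes were higher and 1400 lower. Chromosome 8, where no such run was found, had a median of -0.12 over 370 tested genes. Without the stretch, every other chromosome had a median between 0.02 and 0.10. MYC, MCM4 and KHDRBS3 lie on chromosome 8. Gain of the long arm of chromosome 1 is common in myeloma. DNA copy number was not part of the data used here.

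**Figure D2:**
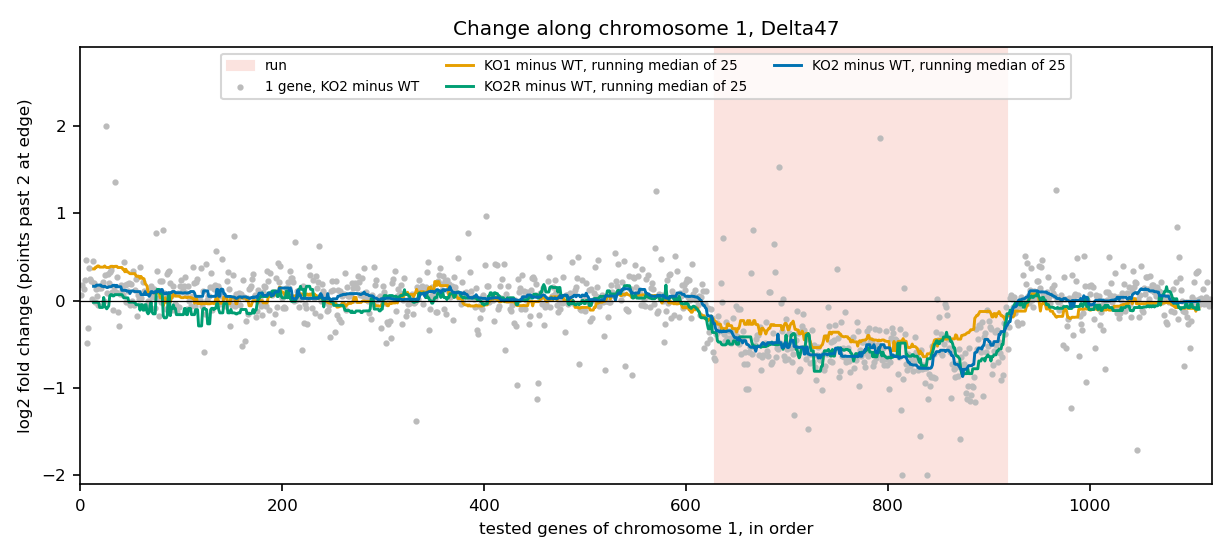
Log2 fold change from WT of the tested genes of chromosome 1, in order, for Delta47. Grey points are single genes in KO2 (those past 2 are drawn at the edge), lines are running medians of 25 genes for KO1, KO2 and KO2R, and the shaded band is the run of 289 genes, where the KO2 median is -0.57 and the KO1 median -0.40.

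The same stretch was lower in the second clone, KO1, and in KO2R, which is the KO2 clone with a vector and not a further clone. The median of the stretch was -0.40 in KO1 against WT and -0.55 in KO2R against WT, comparisons that share the WT libraries. In the direct test KO2 lay below KO1 in 144 of the 289 genes (17.1% of all genes tested) and above it in 28 (25.4%). The KO2 libraries that picked the stretch also enter this test, which tilts its counts toward KO2 below KO1. The lowest running median of KO2, -0.87, fell at SUCO. Around it the 16 tested genes from METTL13 to COP1 had a median of -0.98 in KO2 and -0.37 in KO1, all 16 were called lower, and 14 of them were below KO1. These borders were also chosen after the KO2 values were seen, so the counts describe the stretch and do not test it. A shorter stretch on chromosome 2, under the 25 genes asked of a run and with borders likewise picked from the values, is given as a description. Its 13 tested genes from ACOXL to IL36B had a median of 0.51 in KO2 and -0.06 in KO1, with 11 called higher than WT and 10 higher than KO1. CKAP2L, BCL2L11 and POLR1B are among these genes.

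Genes of interest in myeloma lie in the chromosome 1 stretch. They include the surface receptor genes SLAMF7, CD48, LY9 and IL6R, the survival gene MCL1, which went from 126, 122 and 121 to 82.7, 81.4 and 81.8 (-0.58), and CKS1B. Members of other lists that fell there are the proteasome subunit genes PSMB4 (-0.54) and PSMD4 (-0.55), the chaperonin subunit gene CCT3 (-0.74), CACYBP (-1.09), the farnesyl diphosphate synthase gene FDPS (-0.82), ATF6 (-0.80) and the ribosomal protein gene RPS27 (-0.91). CRABP2, a retinoic acid binding protein gene in the stretch, rose by 1.86.

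Plasma cell identity genes were present and split. Of 29 tested members 16 fell and 13 rose, so all were called, with a median of -0.30. Without the 4 members in the chromosome 1 stretch 12 fell and 13 rose and the median was 0.11. IRF4 fell from 264, 257 and 245 to 194, 194 and 189 (-0.41), XBP1 fell by 0.16 and PRDM1 rose by 0.18.

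SLAMF7, the target of an antibody used in myeloma, stood at 95.2, 97.5 and 97.1 in WT and 14.3, 14.7 and 13.96 in KO2, a log2 fold change of -2.67 (SE 0.04, adjusted p = 1.11e-17). GPRC5D, an orphan receptor and another myeloma drug target, went from 68.7, 71.7 and 71.6 to 20.4, 18.3 and 19.99 (-1.80, adjusted p = 1.03e-14). The fall of SLAMF7 was larger than the median of the stretch it lies in, and GPRC5D lies on chromosome 12.

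TNFRSF17 (BCMA, the receptor for the survival factors BAFF and APRIL) fell by 0.79, from 117 to 67.3. The receptor genes CD48 (-1.25) and IL6R (-1.02), the immunoglobulin joining chain gene JCHAIN (-0.93) and the transcription factor gene MEF2C (-1.70) fell too. NCAM1 (CD56) went from 3.44, 3.18 and 2.84 to 0.02, 0.04 and 0.02. The 3 KO2 libraries thus lay near 0 for NCAM1.

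Other plasma cell genes rose. SDC1 (CD138, syndecan 1) stood at 164, 176 and 173 in WT and 298, 290.29 and 287 in KO2 (0.77, adjusted p = 1.03e-11). CXCR4, the receptor that holds plasma cells in bone marrow, rose from 12.9 to 27.2 in the mean (1.02). CD38 rose by 0.35, CD79B by 0.56 and the chaperone gene MZB1 by 0.32. Against KO1, KO2 was lower in SLAMF7 (-1.18), GPRC5D (-1.31), JCHAIN (-0.72), CD48 (-0.68) and SDC1 (-0.34) and higher in PRDM1 (0.36), each of them called.

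Among oncogenes of the myeloma translocations and the D cyclins, 6 of 9 tested genes fell and none rose. CDK6 (-0.45), CCND2 (-0.33) and MYC (-0.16) were among them, none past 1.5-fold. CCND1 and EEF1A2 were below 1 in all 6 libraries and were not tested.

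**Figure D3:**
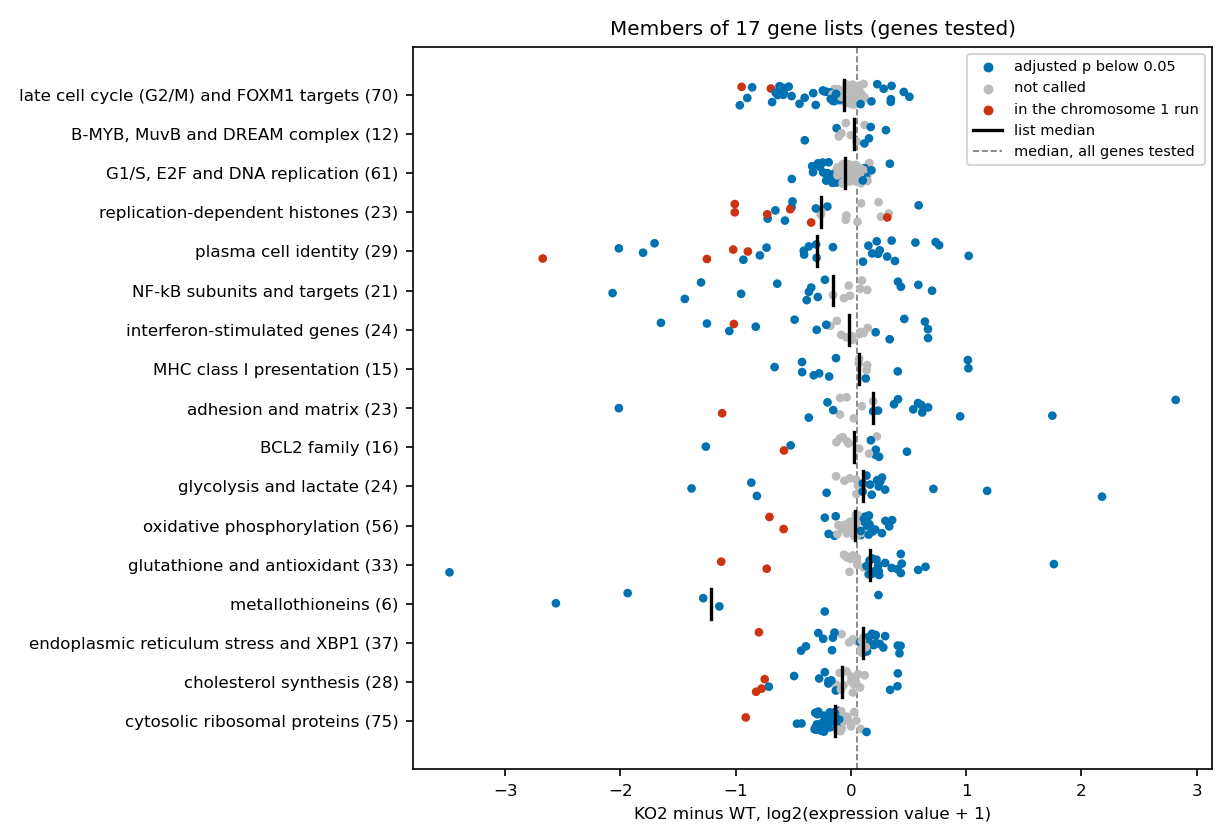
KO2 minus WT on the log2(expression value + 1) scale for the tested members of 17 gene lists, with the number tested in brackets. Blue points were called at an adjusted p below 0.05, red points (called or not) lie in the chromosome 1 run, black bars are list medians and the dashed line is the median of all genes tested, 0.05; the metallothionein bar lies at -1.21 and the bar of the late cell cycle list at -0.06.

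Genes of NF-kB signalling were lower in more members than higher. Of 21 tested 10 fell and 4 rose, with a median of -0.16. The chemokine gene CCL3 went from 44.9, 41.6 and 46.5 in WT to 10.3, 9.38 and 9.75 in KO2 (-2.07, adjusted p = 1.11e-12). RELB (-1.44), a subunit of the noncanonical pathway, the feedback inhibitor gene TNFAIP3 (-1.30) and REL (-0.95) fell as well. The subunit genes NFKB1 (-0.38) and NFKB2 (-0.36) fell by less. MAP3K14, the kinase of the noncanonical pathway, rose by 0.43 and ICAM1 by 0.41. KO2 lay below KO1 in RELB (-0.81, adjusted p = 2.39e-07) and TNFAIP3 (-0.41, 0.000147).

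Interferon-stimulated genes went both ways, with 8 of 24 lower and 6 higher and a median of -0.01. IFITM2 stood at 11.6, 13.7 and 14.1 in WT and 3.55, 3.59 and 3.34 in KO2 (-1.65). IFITM1 (-1.06), a close paralog with which reads may be shared, IFI16 (-1.02), in the chromosome 1 stretch, and USP18 (-1.25) fell, while MX2 (0.67) and OAS2 (0.64) rose. Of the 8 falls 4 were left when only genes at 5 or more in 3 of the 6 libraries were tested, since low genes such as IFITM1 and OAS1 then drop out.

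MHC class I presentation genes also split, with 7 of 15 lower and 4 higher. HLA-C rose from 37.9, 41.6 and 40.3 to 81.6, 81.9 and 81.7 (1.02) and HLA-B from 6.96 to 15.1 in the mean (1.02), while the peptide transporter gene TAP1 fell from 70.7 to 44.4 (-0.66). Reads of HLA genes can be split between near-identical genes and alleles, so these values are uncertain. HLA-DQB1, of class II, fell by 1.07.

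Of 26 tested p53 target and CDK inhibitor genes 10 rose and 7 fell, with a median of -0.0002. With median scaling 8 rose and 11 fell. Among the rises were SESN1 (0.54) and the inhibitor gene CDKN2C (0.33). The cyclin-dependent kinase inhibitor gene CDKN1A (p21) fell. Its values were 34.8, 38.8 and 37.8 in WT and 14.4, 14.5 and 14.3 in KO2 (-1.31, adjusted p = 8.21e-12). CDKN1A was lower in KO2 than in KO1 (-0.95, adjusted p = 2.24e-09). BCL2, the survival gene, stood at 5.39, 4.92 and 5.04 in WT and 1.57, 1.43 and 1.67 in KO2 (-1.26). Its log2 fold change in KO1 was -0.01, and the clone difference was -1.24 (adjusted p = 1.09e-08). KO2R was called against KO2 in neither CDKN1A (adjusted p = 0.987) nor BCL2 (adjusted p = 0.295). The pro-apoptotic gene BCL2L11 (BIM), in the chromosome 2 stretch, rose by 0.49 and BMF fell by 0.52. Of 16 BCL2 family genes 5 were higher (3 with median scaling) and 3 lower.

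The glucose transporter gene SLC2A1 (GLUT1) stood at 13.75, 13.97 and 13.81 in WT and 4.28, 4.87 and 4.95 in KO2 (-1.38, adjusted p = 6.39e-12). Lactate dehydrogenase A (LDHA) went from 1004, 979 and 982 to 588, 579 and 518 (-0.82, adjusted p = 4.5e-11). Hexokinase 2 (HK2) went from 41.8 to 22.5, with a wide standard error over the groups fitted (-0.86, SE 0.23, adjusted p = 0.00675). All 3 fell with no overlap between WT and KO2.

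The lactate exporter gene SLC16A3 (MCT4) rose from 0.89, 1.01 and 0.94 to 7.19, 7.77 and 8.54 (2.18), hexokinase 1 (HK1) from 0.44 to 2.27 (1.18) and aldolase C (ALDOC) from 49.8 to 82.3 (0.72). Of 24 tested glycolysis genes 13 rose and 4 fell, with a median of 0.10. KO2R stood above KO2 in SLC2A1 by 1.53 and in LDHA by 1.32. HK2 was not called between them (0.49, adjusted p = 0.0801), with KO2R libraries at 43.38, 45.76 and 16.25. SLC16A3 differed by -0.40, with a mean of 5.67 in KO2R. Between the clones SLC2A1 was not called (0.07, adjusted p = 0.333), LDHA was lower in KO2 (-0.22) and SLC16A3 higher (1.54). Of 16 hypoxia genes 5 fell and 4 rose, with ADM lowest (-0.82). Leaving out KO2 replicate 3 or WT replicate 3 left 2 of those falls, and leaving out WT replicate 2 left 3.

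Metallothioneins, small proteins that bind zinc and copper, fell, with 5 of 6 listed genes lower and a median of -1.21. MT2A stood at 118, 145 and 152 in WT and 23.9, 24.8 and 19.1 in KO2 (-2.56, adjusted p = 1.39e-12), and MT1A (-1.94), MT1G (-1.28), MT1E (-1.14) and MT1X (-0.23) fell with it. The sixth, MTF1, is the factor that induces them and was 0.24 higher, a call lost with quantile or median scaling. These are near-identical genes and reads may have been assigned among them.

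Of 33 glutathione and antioxidant genes 19 rose and 3 fell, with a median of 0.16. Those that fell were GPX1, MGST3 and PRDX6, the latter pair in the chromosome 1 stretch. GPX1 (glutathione peroxidase 1) stood at 10.9, 11.6 and 11.7 in WT and 0.1, 0.06 and 0.17 in KO2 (-3.48), and its KO1 value was as low (clone difference 0.02, adjusted p = 0.868). The KO2R mean of GPX1 was 0.26. The plasma glutathione peroxidase gene GPX3 rose from 7.63, 7.46 and 7.72 to 29, 28.7 and 26.9 (1.76) and the quinone reductase gene NQO1 by 0.65.

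Of 75 cytosolic ribosomal protein genes 48 fell and 1 rose, with a median of -0.14, and with quantile scaling 30 fell and 9 rose. With median scaling 55 fell and 0 rose, and with a length trend removed 59 fell and 0 rose. Only RPS27, in the chromosome 1 stretch, fell by more than 1.5-fold. In KO1 the median was 0.14 above WT. KO2 was called below KO1 in 71 of the 75 as deposited and in 38 with quantile scaling, where 3 were above. KO2R was called above KO2 in 73 of the 75 as deposited and in 48 with quantile scaling, where 8 were below. Fold changes of all genes tracked transcript length in these 2 comparisons (Spearman's rho across genes 0.201 for KO2 against KO1 and -0.265 for KO2R against KO2) and less against WT (-0.0314). With a length trend removed the counts were again 71 and 73. Column totals were 607461 to 633778 in KO2R, above those of KO2, and their part in the shift was not tested. Oxidative phosphorylation genes, which encode the respiratory chain, were higher in 21 of 56 and lower in 6. With median scaling 8 were higher and 10 lower, and without KO2 replicate 3 the higher calls numbered 12.

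Many of the strongest rises started at or near 0 in WT. IL36B, an interleukin 1 family cytokine gene, was listed at 0 in all 3 WT and all 3 KO1 libraries and stood at 35.1, 34.5 and 29.7 in KO2. SH3BGRL, a small thioredoxin-like protein gene, was listed at 0 in all 3 WT libraries and stood at 15.2, 13.7 and 13.7 in KO2 and at a mean of 20.7 in KO1. ROBO1, a guidance receptor gene, went from 0.02, 0.02 and 0.03 to 12.4, 11.3 and 11.4 (3.64). The hair keratin genes KRT86 (3.75) and KRT81 (3.58), near-identical paralogs on chromosome 12, rose together.

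PECAM1 (CD31), an adhesion receptor of endothelium and of plasma cells, went from 1.28, 1.17 and 1.12 to 13.9, 13.9 and 15.6 (2.82). The zinc finger genes ZNF100 (2.72) and ZNF257 (2.70), both on chromosome 19, rose from under 1. Further rises were MMP23B (2.61), DMKN (2.31), the argininosuccinate synthase gene ASS1 from 27.4 to 97.8 (1.80) and GPR155 (1.79). Over adhesion and matrix genes 12 of 23 rose and 5 fell, including COL6A1 (1.75) and the galectin gene LGALS3 (0.95) among the rises.

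**Figure D4:**
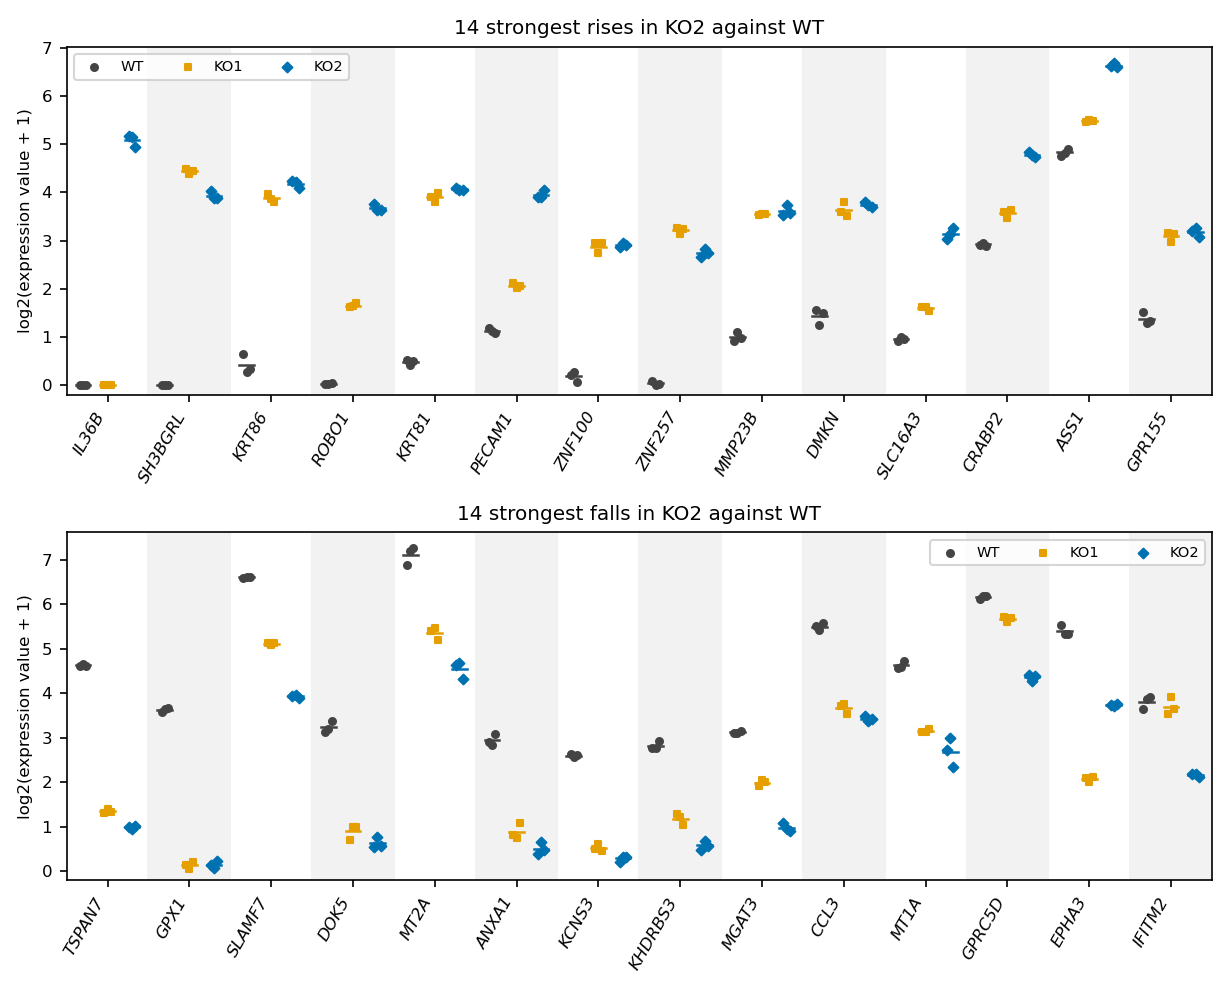
Log2(expression value + 1) in each WT, KO1 and KO2 library for the 14 strongest rises and 14 strongest falls of KO2 against WT. Bars are means of 3; IL36B is at 0 in WT and KO1 and near 5 in KO2, and WT and KO2 points overlap for none of the 28 genes, as the naming rule requires.

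Of the strongest falls, TSPAN7, a tetraspanin gene, went from 23.5, 24.4 and 23.6 in WT to 1.01, 0.94 and 1.03 in KO2 (-3.64, adjusted p = 1.04e-15). DOK5 (-2.61), an adaptor of receptor tyrosine kinases, the phospholipid binding gene ANXA1 (-2.43), the potassium channel gene KCNS3 (-2.31), the RNA binding gene KHDRBS3 (-2.24) and the glycosyltransferase gene MGAT3 (-2.14) fell to values near or under 1. EPHA3, an ephrin receptor gene, fell from 41.4 to 12.3 (-1.67). In KO2R the means were 2.12 for TSPAN7, 1.23 for DOK5, 0.27 for ANXA1 and 0.16 for KCNS3. They were 0.50 for KHDRBS3, 0.73 for MGAT3 and 13.4 for EPHA3, all below the WT means. In all, 105 genes were at 1 or more in the 3 WT libraries and in none of the KO2 libraries, and 80 showed the opposite.

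The direct test of KO2 against KO1 asked where this clone differed from the other knockout, and called 42.5% of all genes tested, 2745 higher in KO2 and 1853 lower. Of these calls 59.7% were higher as deposited and 44.6% with median scaling. At 2-fold or more 29 were higher (0.268%) and 27 lower (0.249%). ROBO1 was 2.02 higher in KO2 than in KO1 and PECAM1 1.88 higher, both above WT in KO2. EPHA3 was 1.66 higher in KO2 although below WT there, and KO1 stood lower still (-3.33 against WT). IAH1 stood at 10.4, 12.9 and 14.65 in WT and 15.8, 14.7 and 16.6 in KO2, which was 2.63 above KO1. Its call against WT (0.30, adjusted p = 0.0181) was lost with no filter on low values, with quantile or median scaling, and without KO2 replicate 3 or WT replicate 1. The protease gene PRSS23 was 1.65 higher in KO2.

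Genes lower in KO2 than in KO1 included interferon genes. The differences were -2.92 for IFITM1 and -1.82 for OAS1, both of which stood above WT in KO1 (1.87 and 1.53) and below it in KO2 (-1.06 and -0.30). The fall of OAS1 from WT lost its call without KO2 replicate 2 or WT replicate 3. PDIA2, a disulfide isomerase gene, differed by -2.44, again with KO1 above WT (2.10). TP53I11 differed by -1.5, with values of 49.6, 53.25 and 54.01 in WT and 21.9, 20.9 and 19.98 in KO2. SSX4B, a cancer testis gene with near-identical copies, differed by -1.33 and varied between libraries, with 39.4, 73.0 and 34.6 in WT and 16.8, 12.6 and 32.3 in KO2.

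**Figure D5:**
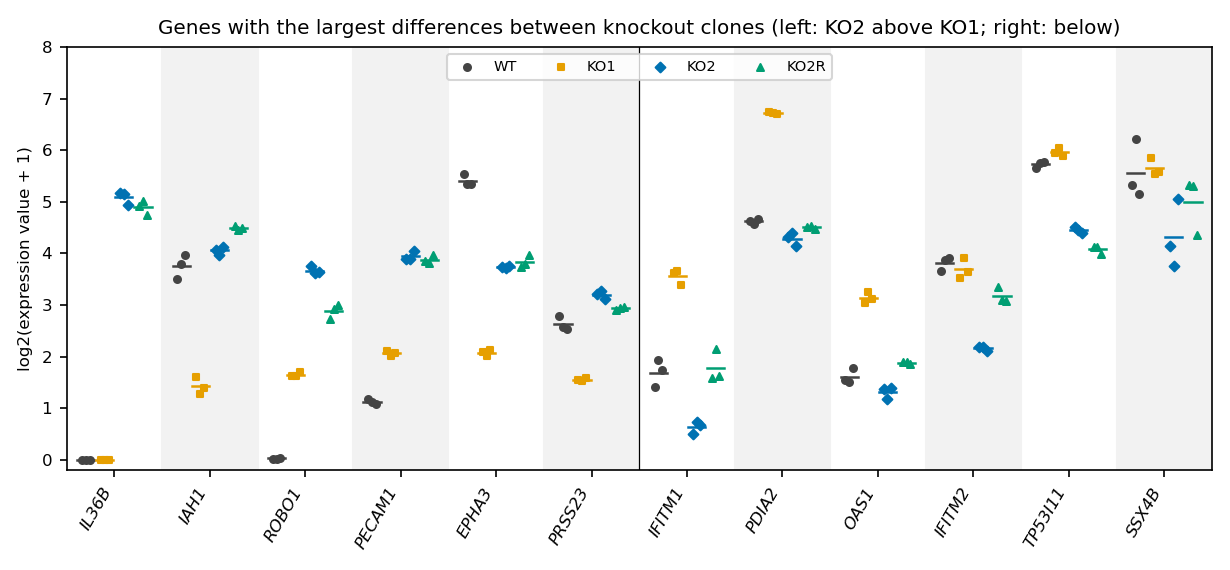
Log2(expression value + 1) in each library of WT, KO1, KO2 and KO2R for the 6 genes with the largest differences of KO2 above KO1 (left) and the 6 below (right). Bars are means of 3; IL36B is at 0 in WT and KO1 only, and PDIA2 and IFITM1 are highest in KO1.

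Markers of other cell types stayed low or moved with few genes. The summed value of B cell markers was 5.17 to 5.43 in WT and 3.39 to 3.72 in KO2, and that of myeloid markers 1.01 to 1.19 and 1.04 to 1.32. CD3G, ITGAM and KRT5 were listed at 0 in all 6 libraries. T and NK cell markers summed to 165 to 167 in WT and 179 to 192 in KO2, nearly all of it CD4, which rose by 0.15. Epithelial markers summed to 8.55 to 9.42 and 11.7 to 13.9, with KRT18 (0.78) and EPCAM (0.67) higher and MUC1 (-0.64) lower. Stromal and endothelial markers summed to 7.79 to 9.0 and 21.8 to 24.0, with PECAM1 and THY1 (0.95) higher. Their part in the changes of adhesion genes was not tested.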

How the data were processed

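Poly-A RNA was sequenced as paired ends of 100 bases, per the labels' protocols, and the genome build hg19 is named in the submitters' processing notes. Aligner and counter: not given in the sources used here. The authors deposited 1 Delta47 table with 17286 genes, whose values carry no named unit and were treated as a signal; they are not counts. Columns were matched to samples by name. The header names of the KO2R columns hold an R but no clone number, and no other Delta47 sample has an R. A further 3 Delta47 columns were not used. Symbols turned into dates (24) were restored through RefSeq gene IDs.

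On log2(value + 1), with no scaling added, limma 3.58.1 (R 4.3.3) fitted a mean-variance trend to the 12 libraries of WT, KO1, KO2 and KO2R. Genes entered at 1 or more in at least 3 of the 6 WT and KO2 libraries. Tests were moderated and two-sided, p-values were adjusted by Benjamini-Hochberg, and calls were made at 0.05. The script was checked on simulated data. Named genes are FOXM1 and fixed genes, the 14 strongest rises and falls whose WT and KO2 values do not overlap and whose mean is at least 5 in either group, the 4 members of each list with the smallest adjusted p, 6 genes each way against KO1 and 4 each way on in only 1 group. Members and lists were chosen with earlier results of these data known. Gene order and promoters are from RefSeq (GRCh38.p14) and no coordinates were converted between builds.

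The alternatives tried were pseudocounts of 0.1 and 0.5, filters, quantile and median scaling, a fit of only the groups compared, no trend, a replicate block and leaving out each library. Removal of a length trend was added after seeing the data.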

Additional observations from a re-analysis of the deposited data

Results flagged for a closer look

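The direct test between the knockout clones called these differences of at least 1 on the log2(value + 1) scale among the named genes (limma, adjusted p from 2.21e-17 to 0.00213). KO2 lay below KO1 in IFITM1 (-2.92), PDIA2 (-2.44), OAS1 (-1.82), IFITM2 (-1.53), TP53I11 (-1.5), SSX4B (-1.33), GPRC5D (-1.31), BCL2 (-1.24), SLAMF7 (-1.18), MGAT3 (-1.0) and in HIST2H2AA3 and HIST2H2AA4 (-1.03, the same values). KO2 lay above KO1 in IL36B (5.09, listed at 0 in KO1), IAH1 (2.63), ROBO1 (2.02), PECAM1 (1.88), EPHA3 (1.66), PRSS23 (1.65), SLC16A3 (1.54), KRT18 (1.27), CRABP2 (1.21), COL6A1 (1.16), ASS1 (1.15) and HK1 (1.04). IFITM1, PDIA2, OAS1 and TP53I11 were called above WT in KO1 and below it in KO2, and IAH1, PRSS23 and KRT18 the other way round. Each clone is 1 clone, so these values compare those clones.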

How the results depend on the processing

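Over the alternatives run, the number of genes called in KO2 against WT stayed within 1.5 times of 4771, but the number called higher moved from 3110 to 2046 when each library was centred on its median. The share of called genes that were higher was then 47.5%, and 54.0% with quantile scaling and 53.7% with a length trend removed. Leaving out 1 library at a time gave 4097 to 4321 calls in KO2 against WT, 3743 to 4035 against KO1, 6197 to 6568 for KO2R against KO2 and 5019 to 5436 for KO1 against WT. Of 159 named genes called, 153 were called under every alternative that tested them, and IAH1, OAS1, RBBP4, RBL2, RFXANK and HSPA5 lost the call in at least 1. No named gene that was called changed direction under these alternatives.

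Replicate numbers were not used to pair the samples in the main fit. Deviations of same-numbered WT and KO2 libraries correlated at -0.0288, 0.053 and 0.0845. Over all pairs of the groups fitted the correlations ran from -0.262 to 0.224. Such values show little shared replicate signal between WT and KO2, and cannot tell whether same-numbered libraries were handled together. With a replicate block 4665 genes were called in KO2 against WT, 4474 against KO1, 6735 for KO2R against KO2 and 5669 for KO1 against WT. The planned length correction was not run, because the table gives no transcript length. A correction with GENCODE 29 lengths was added after seeing the data. Depth is unknown, and values near 1 cannot be given a counting error.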

Other observations

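Genes of protein folding and secretion, which plasma cells need for antibody export, had more members called higher than lower as deposited. The same held for all genes tested, with 28.7% higher and 15.3% lower. Of 37 tested endoplasmic reticulum stress and XBP1 genes 19 rose and 8 fell, with PDIA6 (0.42) and CALR (0.41) higher and HSP90B1 (-0.39) and ATF6 (-0.80, in the chromosome 1 stretch) lower; with median scaling 12 rose and 9 fell. Among 31 HSP90 and heat shock chaperones 8 rose and 3 fell, near the shares of all genes, and the median of 0.05 was that of all genes. HSPA1B (0.36) and BAG3 (0.33) were higher. Of 27 ATF4 response genes 8 rose and 8 fell, with PPP1R15A (-0.80) and ATF3 (-0.94) lower and TRIB3 (0.30) higher.

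Cholesterol synthesis genes fell in 11 of 28 and rose in 3, and 8 of the 25 outside the chromosome 1 stretch fell, among them FASN (-0.71), a fatty acid synthase gene. Of 40 MYC and ribosome biogenesis genes 11 rose and 6 fell, shares close to those of all genes tested. POLR1B (0.56, in the chromosome 2 stretch) and ODC1 (0.38) were higher. With median scaling 5 rose and 8 fell. Of 31 proteasome genes 8 rose and 3 fell (3 and 5 with median scaling), and of 21 tricarboxylic acid cycle genes 4 rose and 4 fell (2 and 5). In the MAGE family MAGEC2 rose by 0.91 while MAGEB2 (-0.84) and NDN (-1.07) fell.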
